A study of Mus musculus with 11 samples.

Results

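The genes described here are 10 imprinted genes that belong to one co-expression network in growing tissues: H19, Igf2, Meg3, Rian, Mirg, Peg3, Plagl1, Grb10, Ndn and Sgce. They were chosen by symbol in the Ensembl annotation of NCBIM37, and all 10 were found among the 37991 genes of the deposited count table. RNA-Seq had been done on 11 aliquots of 1000 haematopoietic stem cells (HSC), which the authors sorted from bone marrow of 8-week-old C57BL/6 mice as Lin- CD48- c-Kit+ Sca1+ CD135- CD150+ cells. The design implies 3 comparisons: NA10hd HSC with control HSC, NV HSC with control HSC, and NA10hd with NV HSC.

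Control HSC (4 libraries) came from mice labelled wild type, which the methods also call littermate controls. Littermate controls in other experiments of the study carried the NA10hd allele with its stop cassette in place, and the sources used here do not say whether those of the RNA-Seq did. NA10hd HSC (4 libraries) came from mice with the fusion gene NUP98-HOXA10HD, tagged with Flag and followed by tdTomato, knocked into the ROSA26 locus behind a stop cassette that Vav-Cre removes. NV HSC (3 libraries) came from mice with a conditional NrasG12D allele, switched on by the same Vav-Cre. Vav-Cre acts throughout the blood system, so the alleles are active in all blood cells of these mice and not in HSC alone. Libraries of a group were numbered, but the labels do not say that each came from a separate mouse, so p-values measure the spread between these libraries, part of which may be technical.

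Imprinted genes are expressed mainly from the maternal or from the paternal copy, as set by DNA methylation marks laid down in the germ line. H19 and Meg3 are maternally expressed non-coding RNAs, Igf2 is the paternally expressed growth factor beside H19, and Rian and Mirg are made from the maternal copy downstream of Meg3. In the blood system, the H19-Igf2 and Dlk1-Meg3 loci are known for their expression in long-term HSC and their role in quiescence. Counts per gene do not tell the parental copies apart, so the levels below are sums over both.

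The mean levels of H19, Igf2 and Meg3 were highest in NA10hd HSC and lowest in NV HSC. By edgeR all 3 passed the test between NA10hd and NV, Igf2 and Meg3 also that between NV and control, and none that between NA10hd and control, while DESeq2 called all 3 genes in every comparison. Mean levels in NA10hd, control and NV HSC were 38.1, 5.82 and 0.866 CPM for H19, 73.2, 24.0 and 2.58 CPM for Igf2, and 70.2, 25.1 and 4.33 CPM for Meg3. Ndn had the same order within a narrower span, and Grb10, Sgce, Peg3 and Plagl1 passed no test. CPM are counts per 1000000 counts of the library total, after that total was multiplied by a normalization factor (TMM). The plot of levels by library shows all 10 genes.

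**Figure D1:**
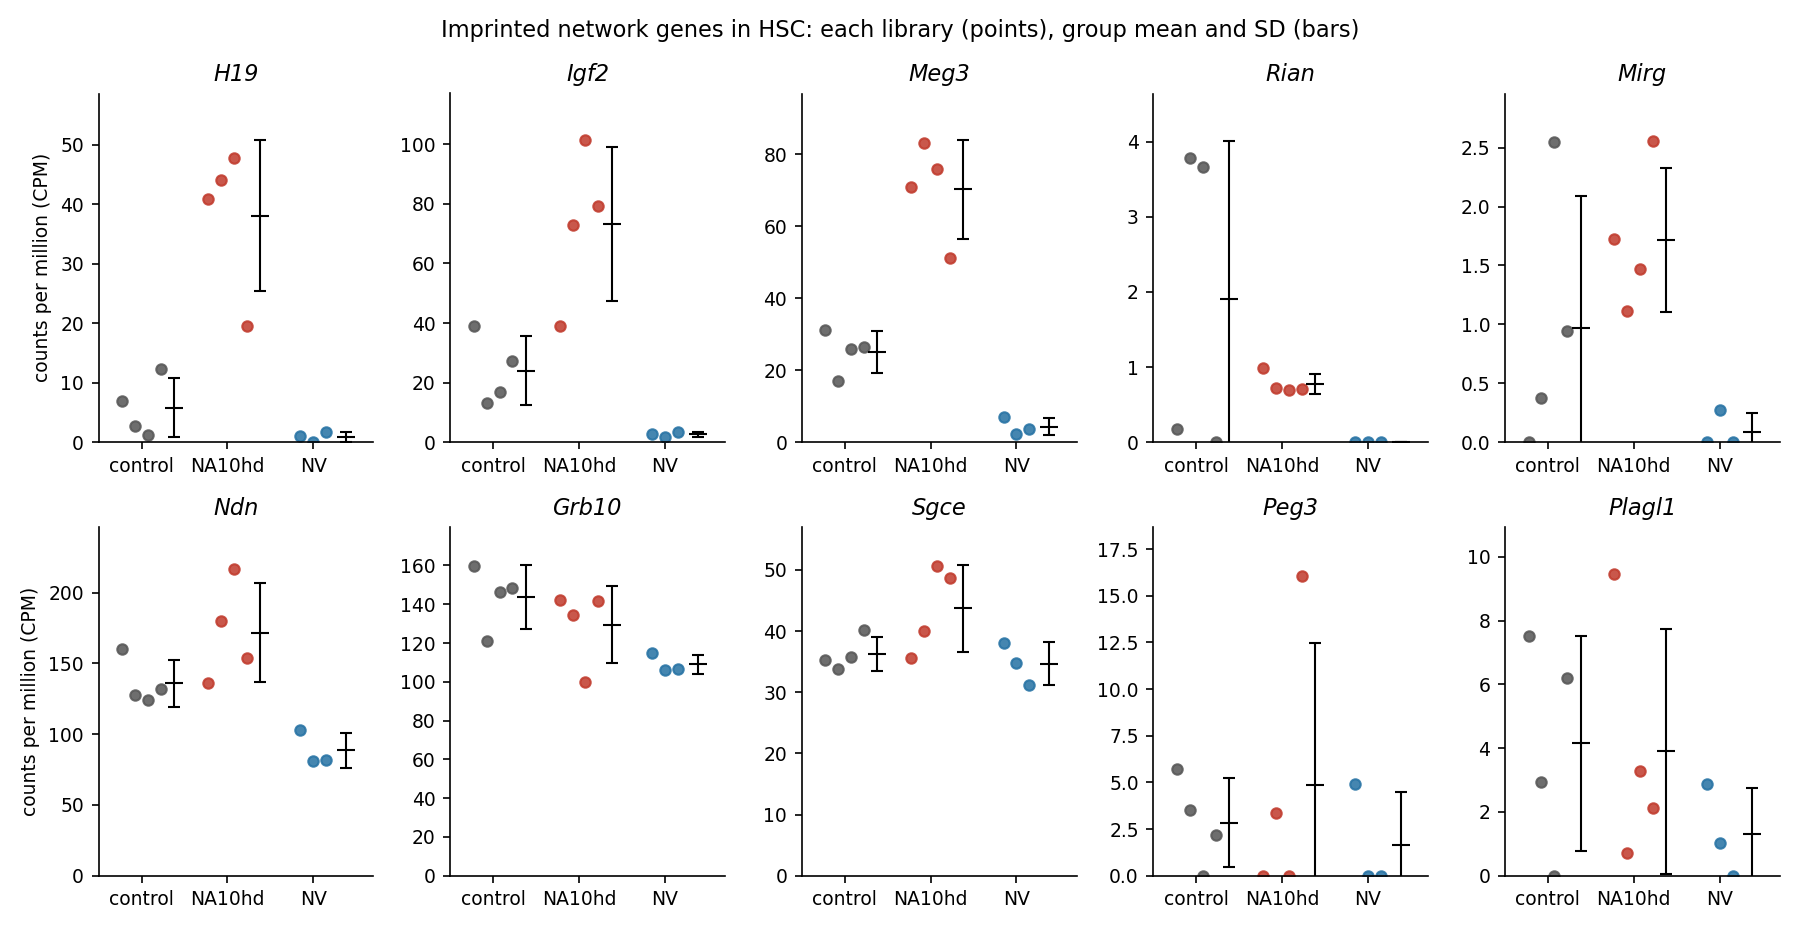
Level of each of the 10 genes in CPM (linear axis from 0) in the 4 control, 4 NA10hd and 3 NV libraries, in order of replicate. Points are libraries, and the bar beside them is the group mean with its SD (bars end at 0 where the SD is larger than the mean). For H19, Igf2 and Meg3 all NA10hd points lie above all control points, and all NV points of Igf2 and Meg3 lie below them.

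Several of these transcripts contain small RNAs, and their sequences are shown because a count on the host gene can include reads of the hairpin. In the annotation of NCBIM37, 18 miRNA genes lay inside a member gene, of which 14 matched an entry of the same symbol in RefSeq with 26 mature miRNAs and 26 different seeds. The 5 miRNA genes that share at least 60 exon bases with their host are Mir675 in H19 (84 bases), Mir770 and Mir1906-1 in Meg3 (94 and 80 bases), and Mir410 and Mir377 in Mirg (81 and 68 bases). Their mature sequences follow, 5′ to 3′, with the seed (bases 2 to 8) in capitals.
miR-675-3p: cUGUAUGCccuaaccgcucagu
miR-675-5p: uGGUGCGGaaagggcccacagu
miR-1906: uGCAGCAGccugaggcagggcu
miR-770-5p: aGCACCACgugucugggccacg
miR-770-3p: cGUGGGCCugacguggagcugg
miR-377-5p: aGAGGUUGcccuuggugaauuc
miR-377-3p: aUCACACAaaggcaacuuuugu
miR-410-5p: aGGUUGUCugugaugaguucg
miR-410-3p: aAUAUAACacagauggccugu
No seed of these sequences was shared with another. All 18 miRNA genes had 0 counts in the 11 libraries, as had the 13 annotated snoRNA genes inside Rian. The libraries were made from polyA RNA by cDNA amplification, and these counts of 0 give no measure of the mature miRNAs. Igf2as on the opposite strand of Igf2 (98 shared exon bases) and Gm17639 opposite Meg3 (1228 shared exon bases) also had 0 counts. The strand setting of the counting and its treatment of reads on overlapping genes are not given in the sources used here. Reads from these partners therefore cannot be told apart from those of Igf2 and Meg3, and their counts of 0 do not show that they had no reads.

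Promoter windows from RefSeq (GRCm38.p6, 250 bases before to 50 after the start site) were found for 8 of the 10 genes, in 13 windows. H19 and Sgce have no entry. Windows of Meg3 and Igf2 are shown because these genes had the largest changes in both tests of NV HSC among genes with a window that passed the low-count filter in both. The Meg3 window (chr12:109540746-109541045, plus strand) is given 5′ to 3′ with 2 motifs in capitals, TGACGTCA (the cAMP response element) starting 57 bases before the start site and the TATA box letters TATAAA, which overlap their own reverse complement, starting 29 and 25 bases before it.
Meg3: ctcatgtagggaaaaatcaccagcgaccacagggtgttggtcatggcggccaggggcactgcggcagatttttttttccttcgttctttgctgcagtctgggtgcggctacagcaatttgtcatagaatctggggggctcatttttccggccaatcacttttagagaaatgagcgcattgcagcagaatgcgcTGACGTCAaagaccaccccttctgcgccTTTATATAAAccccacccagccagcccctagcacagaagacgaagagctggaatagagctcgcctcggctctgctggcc
The Igf2 gene has 4 windows, and the 250 bases before the start in the one with the most CG dinucleotides (chr7:142658805-142659054, minus strand, 24 CG in the whole window) carry GGGCGG, the GC box, once, read on the opposite strand and in capitals 17 bases before the start.
Igf2: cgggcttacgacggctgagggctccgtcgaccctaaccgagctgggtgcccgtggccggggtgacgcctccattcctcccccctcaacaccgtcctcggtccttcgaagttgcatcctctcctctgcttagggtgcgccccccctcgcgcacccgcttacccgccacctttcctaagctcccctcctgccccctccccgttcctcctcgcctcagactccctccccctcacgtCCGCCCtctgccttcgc
Both strands were searched. Among all 32851 windows of that length, 13.6% hold TATAAA, 1.79% TGACGTCA, 35.7% GGGCGG and 1.08% GGGGCCCC, letters of the motif of the zinc-finger factor Plagl1. GGGGCCCC was found in 1 of the 13 windows, that of Peg3, and TATAAA in 1, that of Meg3. TGACGTCA was found in windows of Meg3 and Peg3, and GGGCGG in windows of Ndn, Igf2, Plagl1 and Grb10. The median window of all genes had 7 CG dinucleotides, against 45 in the richest Grb10 window, 26 in that of Plagl1, 13 in those of Meg3 and Peg3, 11 in that of Ndn, 10 in that of Mirg and 0 in that of Rian.

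Total counts per library were 5464815 to 14283008, with 13859 to 15900 genes detected. Both mutant groups were checked at the targeted genes on their endogenous counts. Nras had a mean of 112 CPM in NV (SD 1.37, n = 3) and of 83.9 CPM in control HSC (SD 12.3, n = 4), with all NV above all control libraries, and it was not called (log2 fold change 0.41, edgeR adjusted p = 0.124). These counts do not separate the mutant allele. Hoxa10 had 57.1 ± 20.7 CPM (SD, n = 4) in NA10hd HSC against 39.7 ± 3.29 CPM (SD, n = 4) in control HSC, with overlapping libraries, and whether reads of the inserted fusion were counted there was not tested. All 12 long-term HSC (LT-HSC) markers listed were detected in every group, a weak check, since 13859 to 15900 genes were detected per library. Of 7 progenitor markers, 4 were tested in NA10hd against NV (2 higher, 2 lower). Prtn3 was called higher there, against 2.30% of all genes. In the comparisons with control 0 were called. The summed level of the 7 was 530 to 690 CPM in NA10hd, 397 to 567 CPM in control and 373 to 436 CPM in NV libraries. Of 16 markers of mature blood lineages, 7 were tested in NV against control, and 3 of them (Klf1 of red cells, Pf4 and Ppbp of megakaryocytes) were called higher, against 2.55% of all genes. Their summed level was 594 to 810 CPM in NV, 492 to 591 CPM in control and 421 to 565 CPM in NA10hd libraries, so that all NV libraries were above the rest. The part of these cells in the levels below was not tested. By Xist and 4 Y-linked genes, 5 libraries held Y-linked counts only (control replicates 1 and 4, NA10hd replicates 1 to 3), NA10hd replicate 4 held Xist counts only, and the other 5 (control replicates 2 and 3 and all NV libraries) held both. NA10hd replicate 4 also had the fewest genes detected.

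H19 (ENSMUSG00000000031, chromosome 7, 149761434 to 149764048, minus strand of NCBIM37) is a spliced RNA that codes for no protein and is one of the most abundant transcripts of the fetus. Its levels were 6.97, 2.75, 1.20 and 12.4 CPM in control replicates 1 to 4, 40.9, 44.1, 47.9 and 19.6 CPM in NA10hd replicates 1 to 4, and 0.955, 0 and 1.64 CPM in NV replicates 1 to 3. All NA10hd libraries were above all control libraries, with replicate 4 the lowest of them, while the NV range overlapped control at its lower end. NV replicate 2 had a count of 0. The counts behind these values were 138 to 554 per NA10hd library, 15 to 92 per control library and at most 17 per NV library. In the test between NA10hd and NV HSC, H19 was 5.51 higher on the log2 scale (SE 0.82, adjusted p = 0.00403 from edgeR). It passed the low-count filter there through its NA10hd libraries. Against control, the log2 fold change was 2.75 in NA10hd (SE 0.58, adjusted p = 0.139) and -2.76 in NV (SE 1.05, adjusted p = 0.164), and neither was called by edgeR. Both were DESeq2 calls, at adjusted p = 0.000418 for NA10hd and 0.0424 for NV HSC.

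Igf2 (ENSMUSG00000048583, chromosome 7, 149836673 to 149852721, minus strand) codes for insulin-like growth factor 2, the ligand that acts through the receptors of Igf1r and Insr and is cleared by Igf2r. Control replicates 1 to 4 had 39.0, 13.1, 17.0 and 27.2 CPM, NA10hd replicates 1 to 4 had 39.1, 73.0, 101 and 79.3 CPM, and NV replicates 1 to 3 had 2.71, 1.76 and 3.28 CPM. The NV libraries lay far below the rest, and the NA10hd libraries lay above the control libraries only by the narrowest margin, since NA10hd replicate 1 was level with control replicate 1. In NV against control HSC, Igf2 fell by 3.22 on the log2 scale (SE 0.43, adjusted p = 0.00169 from edgeR) and was 4.83 higher in NA10hd than in NV HSC (SE 0.41, adjusted p = 0.000269). Its log2 fold change of 1.63 in NA10hd against control (SE 0.36) had an adjusted p of 0.154 from edgeR and was not called, while DESeq2 called it (adjusted p = 0.00341).

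H19 and Igf2 lie side by side, use shared enhancers and are expressed from opposite parental copies. Their levels can be compared per length of transcript, as CPM per kilobase of exon (FPKM), here computed with exon lengths of 2372 and 5493 bases. The ratio of H19 to Igf2 on this scale was 0.414, 0.487, 0.163 and 1.05 in control replicates 1 to 4, and 2.42, 1.40, 1.09 and 0.572 in NA10hd replicates 1 to 4. Most NA10hd libraries had more H19 than Igf2 per length and most control libraries less, but the ranges overlapped through control replicate 4 and NA10hd replicate 4. In NV replicates 1 and 3 the ratio was 0.817 and 1.16, from at most 34 counts of either gene.

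Meg3 (ENSMUSG00000021268, chromosome 12, 110779211 to 110809936, plus strand) is the first of a run of maternally expressed non-coding RNAs, and its level is often read as a measure of the activity of the maternal Dlk1-Meg3 domain. Control replicates 1 to 4 had 31.1, 17.1, 25.8 and 26.5 CPM, NA10hd replicates 1 to 4 had 70.9, 83.1, 75.8 and 51.1 CPM, and NV replicates 1 to 3 had 6.92, 2.30 and 3.77 CPM. The 3 groups did not overlap. In NV against control HSC, Meg3 fell by 2.54 on the log2 scale (SE 0.38, adjusted p = 0.00299 from edgeR) and was 4.01 higher in NA10hd than in NV HSC (SE 0.40, adjusted p = 0.000405). In NA10hd against control its log2 fold change was 1.49 (SE 0.24), with an adjusted p of 0.0633 from edgeR that missed the threshold and of 5.38e-06 from DESeq2 that passed it. Without NA10hd replicate 4 the same fit called it (log2 fold change 1.62, adjusted p = 0.0418), and without a filter on low counts too (adjusted p = 0.0284).

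Rian (ENSMUSG00000091793, chromosome 12, 110842155 to 110899919), the host of many C/D-box snoRNAs, lies downstream of Meg3 and did not follow it library by library. It had 1, 40, 46 and 0 counts in control replicates 1 to 4, 8, 9, 8 and 5 counts in NA10hd replicates 1 to 4 and 0 counts in all NV libraries. Nearly all control counts came from replicates 2 and 3, the control libraries with both Xist and Y-linked counts, while every NA10hd library had a few. The 0 counts in NV HSC allow up to 0.0820 CPM, taken as 3 counts over the group's 36597205 counts, so Rian was at least 23.1-fold lower in NV than in control HSC and at least 9.12-fold lower than in NA10hd HSC. These bounds speak for counting error alone, as copies of one cDNA molecule could not be recognized. Rian missed the low-count filter in all 3 comparisons. By DESeq2 it was lower in NV than in control HSC (adjusted p = 0.00563), as it was by edgeR without the filter (adjusted p = 0.0429), and it was not called between NA10hd and control. Between NA10hd and NV DESeq2 gave it no adjusted p, and edgeR without the filter did not call it (log2 fold change 6.10, adjusted p = 0.142).

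Mirg (ENSMUSG00000091158, chromosome 12, 110973191 to 110987665), the host of a large miRNA cluster, was near the limit of these libraries. NV libraries held 0 to 4 counts of it, NA10hd libraries 14 to 18 and control libraries 0 to 32. NA10hd libraries (1.11 to 2.55 CPM) were all above NV libraries (at most 0.271 CPM), and control libraries overlapped both. The log2 fold change of 3.98 between NA10hd and NV (SE 1.38) had an adjusted p of 0.130 from edgeR and 0.0451 from DESeq2. Dlk1, the paternally expressed membrane protein at the other end of the domain and a neighbour of Meg3, had 1.97 to 4.14 CPM in control, 9.94 to 18.4 CPM in NA10hd and 0.0966 to 0.947 CPM in NV libraries. The groups did not overlap for Dlk1 either, and it was called between NA10hd and NV (log2 fold change 4.48, SE 0.77, adjusted p = 0.00830 from edgeR), where it passed the low-count filter through its NA10hd libraries alone.

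Ndn (ENSMUSG00000033585, chromosome 7, 69493163 to 69494814, plus strand) codes for necdin, a paternally expressed protein of the MAGE family known to restrain proliferation, also in HSC. Its levels were 160.1, 128, 124 and 132 CPM in control replicates 1 to 4, 136, 180.4, 217 and 154 CPM in NA10hd replicates 1 to 4, and 103, 80.7 and 81.9 CPM in NV replicates 1 to 3. All NV libraries were below all others, and NA10hd libraries overlapped control. In NV HSC, Ndn fell by 0.62 on the log2 scale (SE 0.14, adjusted p = 0.0258 from edgeR), and it was 0.95 higher in NA10hd than in NV HSC (SE 0.21, adjusted p = 0.0250). Both calls rest on few libraries. The first was lost without control replicate 1 or 4 or NV replicate 2 or 3 (adjusted p up to 0.122), and the second without any one NV library (adjusted p up to 0.161). With only the libraries that held both Xist and Y-linked counts, the difference between NV and control was -0.51 (adjusted p = 0.151).

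Grb10 (ENSMUSG00000020176, chromosome 11, 11830511 to 11938686), an adaptor that damps signals of the insulin and IGF receptors, was among the most abundant members. Its mean level was 144 CPM in control (SD 16.5, n = 4), 129.5 CPM in NA10hd (SD 20.0, n = 4) and 109 CPM in NV HSC (SD 4.86, n = 3). All NV libraries (106 to 115 CPM) lay below all control libraries (121 to 160.0 CPM), with a log2 difference of -0.41 (SE 0.13) that missed the threshold (adjusted p = 0.0967 from edgeR). Sgce (ENSMUSG00000004631, chromosome 6, 4624350 to 4697204), the paternally expressed epsilon-sarcoglycan, had a mean of 36.2 CPM in control (SD 2.77, n = 4), 43.7 CPM in NA10hd (SD 7.15, n = 4) and 34.7 CPM in NV HSC (SD 3.46, n = 3). The libraries of the 3 groups overlapped. Peg10, a retrotransposon-derived gene whose promoter adjoins that of Sgce, had 0 counts in all 11 libraries.

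Peg3 (ENSMUSG00000002265, chromosome 7, 6656603 to 6683132) and Plagl1 (ENSMUSG00000019817, chromosome 10, 12810497 to 12851500) code for paternally expressed zinc-finger proteins, the second being a transcription factor known to activate other imprinted genes. Peg3 had 32, 37, 0 and 16 counts in control replicates 1 to 4, 0, 42, 0 and 113 counts in NA10hd replicates 1 to 4 and 62, 0 and 0 counts in NV replicates 1 to 3. Plagl1 had 42, 31, 0 and 46 counts in control, 77, 9, 38 and 15 counts in NA10hd and 36, 15 and 0 counts in NV libraries in the same order. Control libraries ranged from 0 to over 30 counts for both genes, with the 0 in the deepest control library, and no difference was larger than this spread. The log2 fold changes ran from -1.65 (Plagl1, NV against control) to 1.56 (Plagl1, NA10hd against NV), with SE of 1.08 to 1.998. The log2 fold change of Peg3 in NA10hd against control was 0.77, and -1.29 without NA10hd replicate 4.

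Counted over the list, 9 of the 10 genes were tested in NA10hd against control, 8 in NV against control and 9 in NA10hd against NV. The edgeR fit called 0 of the 9 in NA10hd HSC, where 1 of all 13060 genes tested was called in either direction (0.00766%). At an unadjusted p under 0.05 stood 3, all higher (H19, Igf2 and Meg3), against 6.62% of all genes, and DESeq2 called the same 3 higher, against 1.09% of all genes. In NV HSC 3 of 8 were called lower (Igf2, Meg3, Ndn), against 2.21% of all genes, and by DESeq2 also H19 and Rian, against 3.55%. Between NA10hd and NV, 4 of 9 were called higher (H19, Igf2, Meg3, Ndn), against 2.30%, and DESeq2, which called 6.09% of all genes higher, also called Mirg. The median log2 fold change over the tested members was 0.77, -1.20 and 1.56 in the 3 comparisons, beside 0.02, -0.01 and 0.01 over all genes tested. Mirg was tested through its NA10hd libraries alone, so the low-count filter fixed its direction against NV. H19 also passed the filter there through its NA10hd libraries, so its call adds no support to the 4 of 9. In NV against control H19, Peg3 and Plagl1 passed it through their control libraries. The other members tested there had log2 fold changes of -3.22 (Igf2), -2.54 (Meg3), -0.62 (Ndn), -0.41 (Grb10) and -0.07 (Sgce). Without Mirg the medians were 0.56, -1.20 and 1.54 over 8 members each, with H19, Peg3 and Plagl1 still among them. NA10hd and NV HSC were set against the same 4 control libraries, so the first and the second of these medians are not independent of each other. In bulk samples fewer cells that express a gene and less RNA per cell cannot be told apart.

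**Figure D2:**
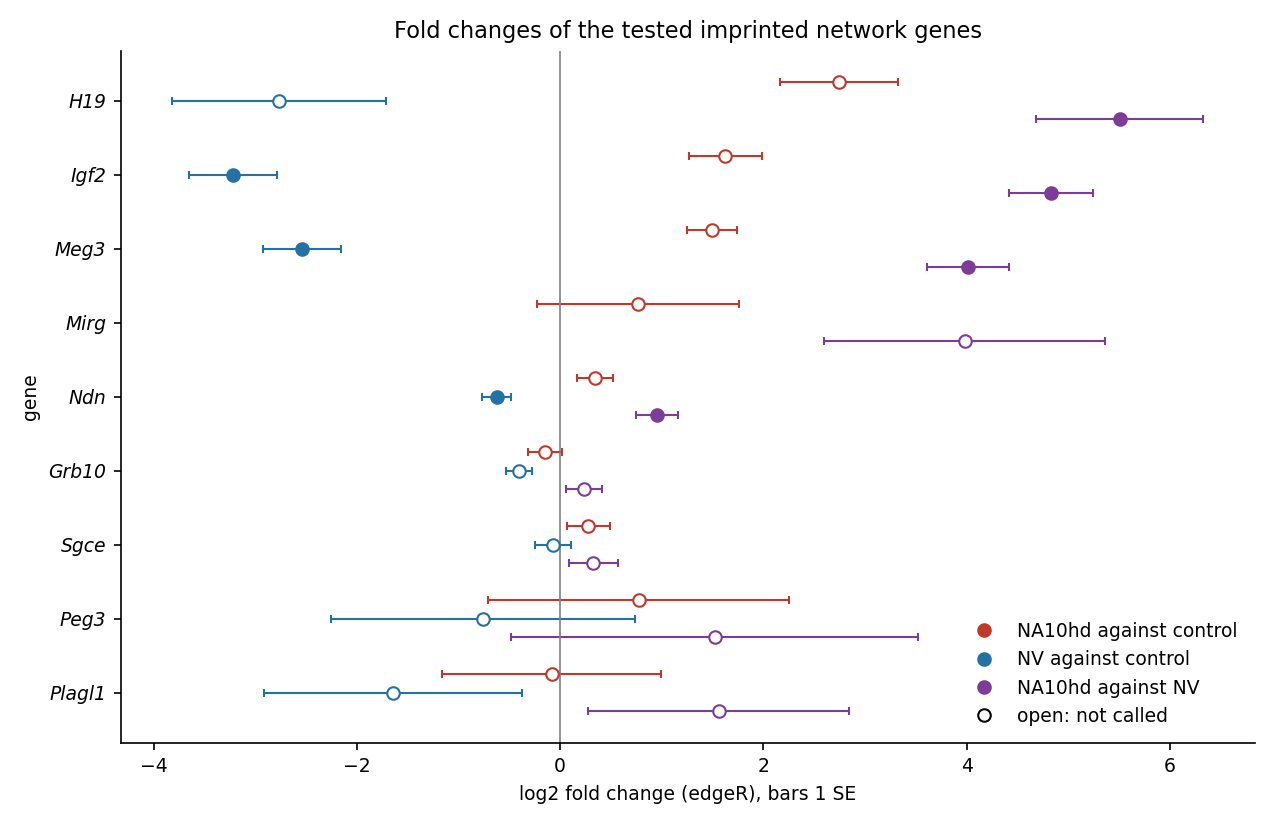
Log2 fold change from edgeR (horizontal axis) of the 9 members that could be tested, in NA10hd against control (red), NV against control (blue) and NA10hd against NV (purple), with bars of 1 SE and filled points for called genes. Igf2 and Meg3 are called in both comparisons with NV, and Peg3 and Plagl1 have SE above 1.

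Without regard to a test, all NA10hd libraries lay above all control libraries for 3 of the 9 tested members (H19, Igf2, Meg3), against 3.89% of all genes tested. All NV libraries lay below all control libraries for 4 of 8 (Igf2, Meg3, Grb10, Ndn), against 9.37%. With Mirg set aside, all NA10hd libraries lay above all NV libraries for 4 of 8 (H19, Igf2, Meg3, Ndn), against 9.63%. H19 passed the low-count filter there through its NA10hd libraries, so it adds no support to this share. The calls of H19, Igf2 and Meg3 between NA10hd and NV held with each library left out in turn, NA10hd replicate 4 included, with log2 fold changes of at least 4.87, 4.60 and 3.70. The calls of Igf2 and Meg3 in NV HSC also held in each such fit.

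Per length of transcript the members spanned a wide range of levels. In control HSC Ndn was the highest with 82.3 FPKM, followed by Grb10 (15.7 FPKM), Sgce (11.7 FPKM), Igf2 (4.38 FPKM), H19 (2.45 FPKM) and Meg3 (1.39 FPKM), and the other 4 were at 0.570 FPKM or less. Igf2, H19 and Meg3 were neighbours in that order, and H19 (SD 2.11 FPKM) could not be ranked against either. In NA10hd HSC H19 (16.1 ± 5.34 FPKM, SD, n = 4), Sgce (14.2 ± 2.32), Grb10 (14.1 ± 2.18) and Igf2 (13.3 ± 4.70) did not differ beyond their spread, with Ndn above them at 104 FPKM. In NV HSC Ndn was again the highest (53.6 FPKM). Grb10 (11.9 ± 0.531 FPKM, SD, n = 3) and Sgce (11.2 ± 1.12) did not differ beyond their spread, and H19, Igf2 and Meg3 were at 0.239 to 0.470 FPKM.

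The control libraries were not even among themselves. Control replicates 1 and 4, with Y-linked counts only, had 39.0 and 27.2 CPM of Igf2, and replicates 2 and 3, with both Xist and Y-linked counts, had 13.1 and 17.0 CPM. H19 had the same split, and Rian the opposite one. With control replicates 2 and 3 alone against NV HSC, which matches the libraries for these counts, the log2 fold change was -2.55 for Igf2 (adjusted p = 0.0245 from edgeR) and -2.31 for Meg3 (adjusted p = 0.0423), and both calls held. In the same fit H19 went from -2.76 to -1.20 (adjusted p = 0.737 from edgeR). With control replicates 1 and 4 against NA10hd replicates 1 to 3, the log2 fold changes were 2.19 for H19, 1.12 for Igf2 and 1.41 for Meg3, and none was called.

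The summed level of 10 cell cycle genes was 54.4 to 139 CPM in NA10hd, 159 to 342 CPM in control and 818 to 1039 CPM in NV libraries, the opposite order to the summed level of the members (477 to 598, 326 to 446 and 227 to 274 CPM). Grb10 and Ndn made up 53.0% to 82.5% of the members' sum, and H19, Igf2 and Meg3 together had 150.03 to 225 CPM in NA10hd, 32.9 to 77.0 CPM in control and 4.06 to 10.6 CPM in NV libraries. Of those 10 genes, 9 were called higher in NV than in control HSC, where 2.55% of all genes were, and 10 lower in NA10hd than in NV HSC, where 2.79% were. In NA10hd against control edgeR called 0 of the 10, with 8 lower at an unadjusted p under 0.05, against 5.26% of all genes, and 2 called lower by DESeq2, against 0.906%. The summed level of 12 LT-HSC markers was 3812 to 4376 CPM in NA10hd, 3167 to 3946 CPM in control and 2858 to 3305 CPM in NV libraries, so that control overlapped both. In NV HSC 3 of these markers were called lower (Procr, Fgd5, Mllt3), against 2.21% of all genes, and 1 higher (Ly6a), against 2.55%. In NA10hd against control edgeR called 0 of the 12, with 3 at an unadjusted p under 0.05 (6.62% of all genes were so higher and 5.26% lower). DESeq2 called 1 higher there, against 1.09%. Control replicates 1 and 4 had the lowest cell cycle sums and the highest member sums of the control libraries. The part of the cell cycle or of the share of LT-HSC in the members' levels was not tested.

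**Figure D3:**
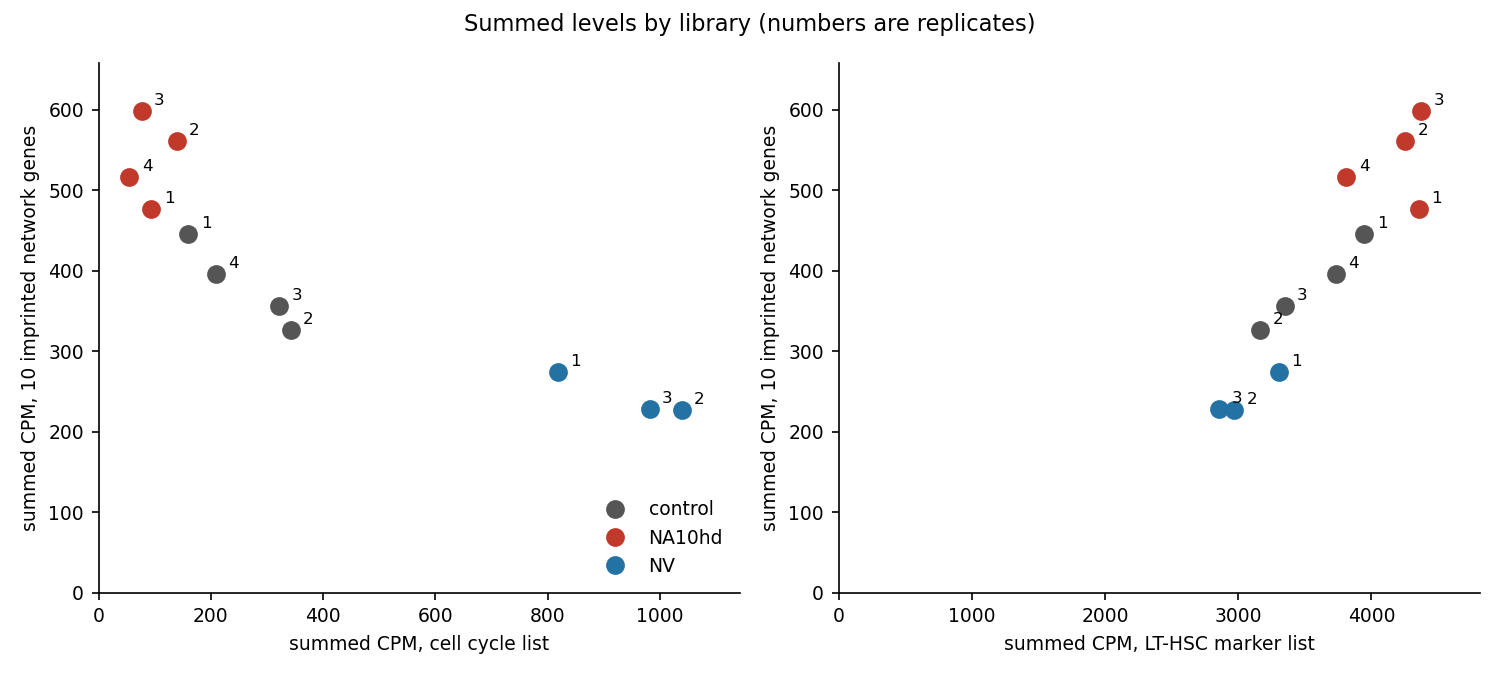
Summed level of the 10 imprinted network genes (vertical axis, CPM) in each of the 11 libraries against the summed level of 10 cell cycle genes (left) and of 12 LT-HSC markers (right), both in CPM on axes from 0, with the replicate number beside each point. Grb10 and Ndn make up 53.0% to 82.5% of the vertical sum. NV libraries have the highest cell cycle sums (818 to 1039 CPM) and the lowest member sums (227 to 274 CPM), and NA10hd libraries the reverse.

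Stromal cells of the marrow can express H19, Igf2 and Meg3, so stromal markers were read beside them. Whether the sort for c-Kit, Sca1 and CD150 left any such cells was not tested. Of 9 stromal markers, Dcn, Lum and Col3a1 were at 0 counts in all 11 libraries, Lepr was at 0 in NA10hd and NV libraries, and 2 (Col1a2 and Pdgfrb) passed the low-count filter, neither of them called in any comparison. Their summed level was 10.4 to 26.1 CPM in NA10hd, 7.41 to 18.4 CPM in control and 3.86 to 8.66 CPM in NV libraries. NA10hd replicate 4, with the highest stromal sum, had the lowest H19 and Meg3 levels of its group and, at 79.3 CPM, an Igf2 level above its group's mean. The 8 endothelial markers summed to 262 to 352 CPM in NA10hd, 279 to 307 CPM in control and 228 to 265 CPM in NV libraries, and 1 of the 6 tested, Emcn, was called lower in NV HSC, against 2.21% of all genes. DESeq2 called 2 lower there, against 3.55%, and edgeR called 2 (Kdr and Emcn) higher in NA10hd than in NV HSC, against 2.30%. Their part in the result was not tested.

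Other imprinted genes were read from a list of 49, of which 46 were found in the files and 25 to 28 passed the filter. In NA10hd HSC edgeR called 0 of 25, with 4 at an unadjusted p under 0.05 (6.62% of all genes were so higher and 5.26% lower) and 2 called higher by DESeq2 (Dlk1 and Tssc4), against 1.09% of all genes by DESeq2. In NV HSC 1 of 28 was called lower (Cdkn1c, against 2.21% of all genes) and 1 higher (Ddc, against 2.55%), shares near those of all genes. DESeq2 called 3 lower there (Cdkn1c, Igf2r and Zrsr1), against 3.55%. In NA10hd against NV 3 of 27 were called higher (Cdkn1c, Dlk1 and Igf2r), against 2.30%. Dlk1 passed the low-count filter there through its NA10hd libraries, so it adds no support to this share. Whether called or not, 17 of 25 had a positive value in NA10hd HSC, 20 of 28 a negative one in NV HSC and 20 of 27 a positive one in NA10hd against NV. The median log2 fold changes were 0.12, -0.22 and 0.28, closer to the medians of all genes than those of the members were, and the difference between the lists was not tested. Mest, Peg12, Phlda2 and Gnas had overlapping libraries in every comparison, the lowest adjusted p from edgeR being 0.746. Mest and Gnas had group means of 0.859 to 1.42 CPM and SE of 0.70 to 1.27 on the log2 scale, so a change in them could have been missed. Snrpn, a splicing gene of the Prader-Willi region, had 8.87, 8.27 and 3.01 CPM in control, NA10hd and NV HSC, and its log2 fold change of -1.57 in NV HSC was not called (adjusted p = 0.221 from edgeR).

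**Figure D4:**
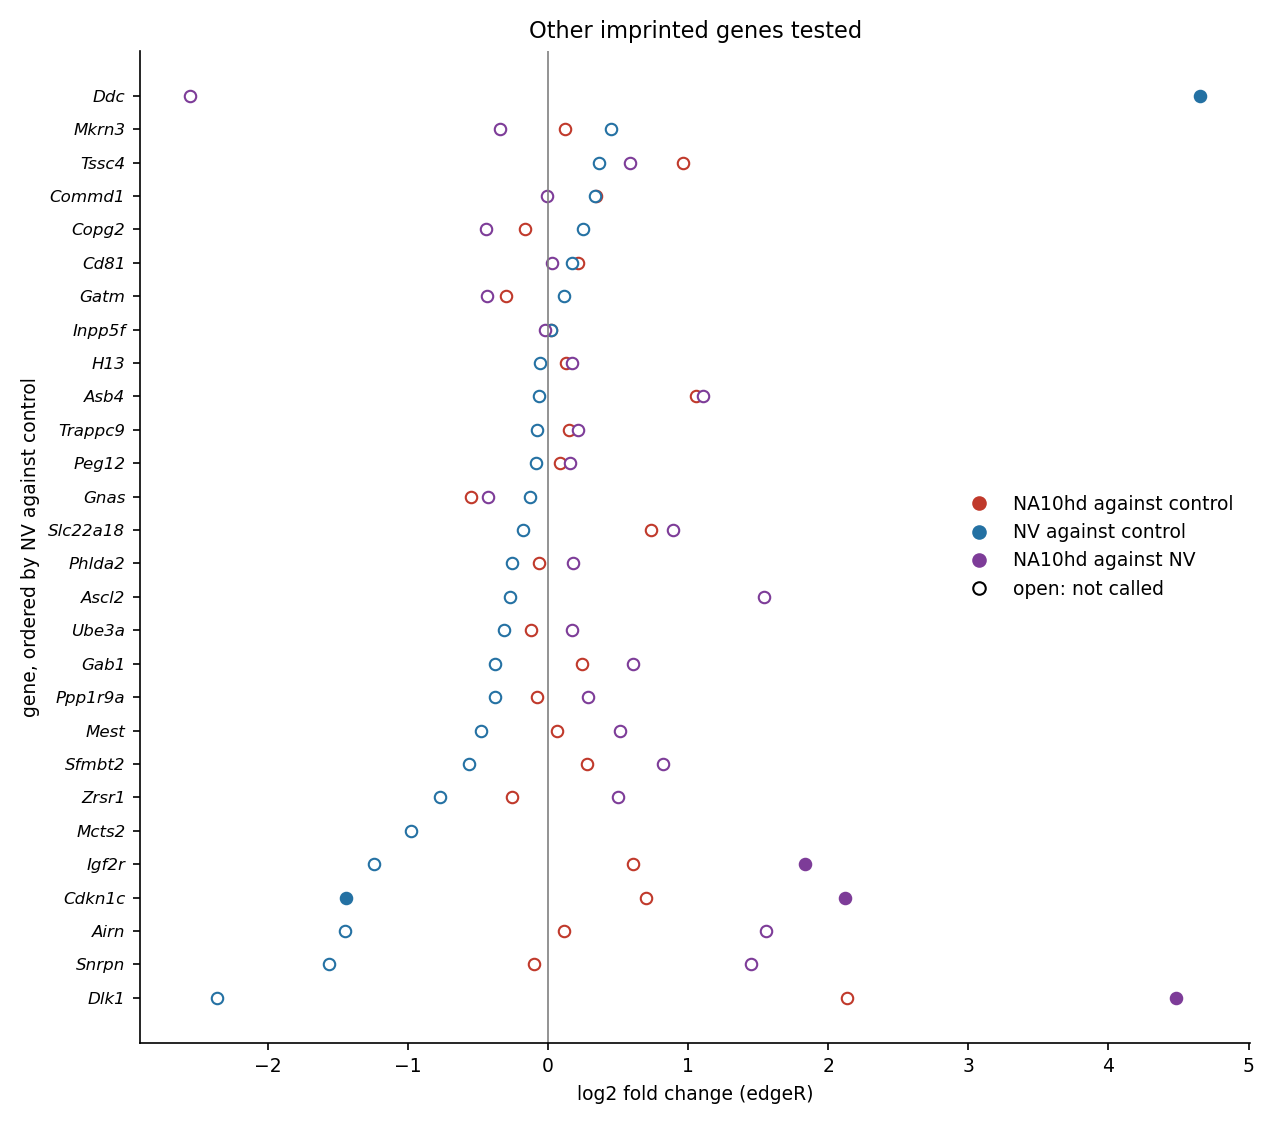
Log2 fold change from edgeR (horizontal axis) of the other imprinted genes tested in NA10hd or NV against control, with NA10hd against control in red, NV against control in blue and NA10hd against NV in purple, and filled points for called genes. Most points lie within 1 log2 unit of 0, and Dlk1, Cdkn1c and Igf2r have their largest values in NA10hd against NV.

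Cdkn1c, the maternally expressed cyclin-dependent kinase inhibitor p57 that keeps HSC out of the cycle, had 25.7 to 68.3 CPM in control, 60.8 to 87.9 CPM in NA10hd and 15.7 to 18.1 CPM in NV libraries. All NV libraries lay below the rest, and NA10hd overlapped control. In NV HSC it fell by 1.44 on the log2 scale (SE 0.34, adjusted p = 0.0294 from edgeR) and was 2.12 higher in NA10hd than in NV HSC (SE 0.23, adjusted p = 0.000676). Control replicates 1 and 4 (68.3 and 62.1 CPM) were above replicates 2 and 3 (27.7 and 25.7 CPM), and with the latter pair alone the difference in NV HSC was -0.66 and not called (adjusted p = 0.220). The call in NV HSC was also lost without control replicate 1 or 4 or any one NV library (adjusted p up to 0.120) and with a replicate block (adjusted p = 0.0877). Ddc, a neighbour of Grb10 that is imprinted in heart, had 2 counts in all control libraries together and 19 to 32 in each NV library (log2 fold change 4.65, SE 1.15, adjusted p = 0.0353 from edgeR), a direction that the low-count filter fixed, since Ddc passed it through the NV libraries alone, and a call that was lost in 10 of the alternatives tried, each NV library left out among them.

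Genes that read or maintain imprints were taken from a list of 14. Dnmt1, which copies methylation to new DNA strands, rose in NV HSC from 173 to 342 CPM (log2 fold change 0.97, SE 0.14, adjusted p = 0.00225 from edgeR) and had a log2 fold change of -1.54 in NA10hd against NV HSC (adjusted p = 0.00368). It was the only gene of the list called by edgeR in any comparison, with 10, 11 and 10 tested, where 2.55% of all genes were called higher in the second comparison and 2.79% lower in the third. Ctcf, whose binding insulates Igf2 from its enhancers on the maternal copy, had 134, 113 and 144 CPM in control, NA10hd and NV HSC, with overlapping libraries. Trim28, which protects imprints together with Zfp57, was higher in all NV than in all control libraries, with an adjusted p of 0.0445 from edgeR, but its log2 fold change of 0.42 was below the 1.5-fold threshold. Uhrf1, which guides Dnmt1 to newly copied DNA, differed by 1.47 on the log2 scale in NV HSC (adjusted p = 0.0639 from edgeR and 0.0198 from DESeq2) and by -1.56 in NA10hd against NV (adjusted p = 0.102 from edgeR and 0.0114 from DESeq2), so DESeq2 alone called it. Zfp57 was not called and was at 2.16 to 2.43 CPM in each group.

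Of 12 genes of the IGF pathway, Igf1, the other IGF ligand, had the widest span. It had 14.8 to 47.5 CPM in control, 45.6 to 117 CPM in NA10hd and 0.159 to 2.03 CPM in NV libraries, and in NV HSC it fell by 4.59 on the log2 scale (SE 0.62, adjusted p = 0.00169 from edgeR). NV libraries were far below the others, and NA10hd overlapped control. In NA10hd against control Igf1 was called by DESeq2 (log2 fold change 1.48, adjusted p = 0.0107) and not by edgeR (adjusted p = 0.201). It was 6.06 higher in NA10hd than in NV HSC on the log2 scale (SE 0.62, adjusted p = 0.000476 from edgeR). Of 7 list genes tested, 2 were called lower in NV HSC, against 2.21% of all genes, and 3 higher in NA10hd than in NV HSC, against 2.30%. Igf1 passed the low-count filter there through control or NA10hd libraries. Igf2r, the maternally expressed receptor that degrades Igf2, had 3.96 to 7.24 CPM in NV and 18.4 to 23.1 CPM in NA10hd libraries (log2 fold change 1.84, adjusted p = 0.0232 from edgeR), and Igf2bp2, which binds Igf2 mRNA, fell by 1.29 on the log2 scale in NV HSC (adjusted p = 0.0246). The Igf2r call was lost without any one NV library (adjusted p up to 0.140). That of Igf2bp2 was lost in 7 alternatives, with control replicate 1 or 4 or any one NV library left out among them (adjusted p up to 0.113 in those fits). The signalling receptor Igf1r, with 8.06, 12.9 and 9.41 CPM in control, NA10hd and NV HSC, was not called.

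The genes around the members were read to see whether whole neighbourhoods moved. Within 500 kb of the members lay 190 other genes that are not on the imprinted list, among them the 31 miRNA and snoRNA genes inside members, all with 0 counts. Of the 190, 34 were tested. In NA10hd against control 0 of these were called, in NV against control 2 higher (Zfp583 near Peg3, Fignl1 near Grb10) and 1 lower (Mrpl23 near H19 and Igf2), and in NA10hd against NV 1 higher (Mrpl23) and 1 lower (Fignl1). Of all genes 2.55% and 2.21% were called higher and lower in the second comparison, and 2.30% and 2.79% in the third. Mrpl23, a gene of the mitochondrial ribosome, changed by -0.63 on the log2 scale from control to NV (adjusted p = 0.0383 from edgeR) and by 1.17 from NV to NA10hd (adjusted p = 0.00382), smaller differences than those of Igf2. For the 8 tested neighbours of H19 and Igf2, log2 fold changes were 0.03 to 0.74 in NA10hd against control (median 0.32), -1.27 to 0.43 in NV against control (median -0.41) and -0.41 to 1.94 in NA10hd against NV (median 0.48). Around Meg3, Rian and Mirg 1 of 83 genes, small RNAs among them, passed the low-count filter, with uncalled log2 fold changes of 0.63, -0.87 and 1.48 in the same order. Around Ndn 0 of 10 passed it.

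The genes most like the members in pattern were found by Pearson's r with the mean standardized profile of the 10 genes over 11 libraries, among 10688 genes with a mean of at least 5 CPM. Among the closest were Chi3l7 (r = 0.991), Gimap6 (0.969), Nab2 (0.965) and Igf2r (0.958). The profile itself was carried by Meg3 (r = 0.959), Igf2 (0.954), Ndn (0.907) and H19 (0.839), with Rian at 0.345. Libraries of one group share their genotype, and many genes that separate the 3 groups in this order have a high r. Chi3l7, a chitinase-like gene, had 48.0, 91.7 and 14.0 CPM in control, NA10hd and NV HSC.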

How the data were processed

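The data were RNA-Seq libraries of 1000-cell HSC aliquots in 3 genotypes. The authors amplified cDNA of polyA RNA and sequenced Nextera XT libraries on a NextSeq500. Per their notes, HISAT2 placed the reads on NCBIM37 and featureCounts summed them by gene. The deposited values are these raw counts, not normalized, of 37991 Ensembl genes. Versions, annotation release, strand setting and treatment of reads with several matches are not given in the sources used here. The annotation of the same build gave symbols for 37205 genes and none for 786.

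Genotype labels set the groups. Each comparison was fitted on its own libraries and on all genes with edgeR 4.0.16 (R 4.3.3), using TMM, the default low-count filter and the quasi-likelihood test. A gene was called at a Benjamini-Hochberg adjusted p under 0.05 over all tested genes and a fold above 1.5, the thresholds of the study's methods. A gene with fewer than 3 counts over a group was below the limit used for counts of 0. The script was tested on simulated data. Exon lengths for FPKM were unions of annotated exons. Sequences came from RefSeq. Figures were drawn with matplotlib 3.10.9.

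The members and lists were chosen with earlier results of these data known. Named genes were all 10 members, the called genes of the other imprinted, imprint regulator and IGF lists with Cdkn1c and Dlk1, and the 5 genes most like the members, of which 1 is not reported here. Others (members of those lists that were not called, marker, neighbouring and targeted genes) were named after their values were seen. Alternatives were DESeq2 1.42.0, its size factors in edgeR, no filter, no fold threshold, a replicate block, all 3 groups fitted together, each library left out, and libraries alike in Xist and Y-linked counts.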

Additional observations from a re-analysis of the deposited data

Results flagged for a closer look

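Within groups of 4 libraries, 1 value stood apart from the others of its group by Dixon's criterion among the 20 groups of the 10 genes. Rian had 0.983 CPM (8 counts) in NA10hd replicate 1, against 0.691 to 0.716 CPM in the other NA10hd libraries. Chance alone flags about 1 in 20 such groups. The gap comes to less than 3 counts at the depth of that library.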

How the results depend on the processing

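Of the members in NA10hd against control, DESeq2 called 3, edgeR without a low-count filter 1, and fits without one library 0 to 1 (1 without NA10hd replicate 4). DESeq2 called 5 members in NV against control and 2 other imprinted genes in NA10hd against control. Other imprinted genes called in NV against control were 2 in the reported fit, 4 by DESeq2, 1 without the filter, 1 with all 3 groups in one fit, 0 with a replicate block, 0 in libraries alike in Xist and Y-linked counts, and 0 to 2 without one library. Peg3 in NA10hd against control turned from 0.77 to -0.38 with the block and to -1.78 in libraries alike in those counts, and ran from -1.29 to 1.35 without one library, and Plagl1 went from -0.08 to 0.00798 with the block and from -0.999 to 0.36 without one library. For these the cause was not tested. For single genes, 540 values kept direction and side of the threshold, 36 lost the call, 11 gained it and 8 turned. Replicate numbers did not pair the libraries, since deviations of same-numbered libraries had correlations of -0.109 to 0.034, and the block left the members' calls at 0, 3 and 4. Rian, Mirg, Peg3 and Plagl1 had 0 counts in some libraries, depth set the limit of 0.0820 CPM for Rian in NV HSC, and counts hold no record of replicate origin, strand or parental copy.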
